A study of Homo sapiens with 63 samples.

Results

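The 9 genes described here encode the enzymes that make serine and the enzymes that carry its one-carbon unit through the mitochondria, with the cytosolic counterparts of the latter. They are PHGDH, PSAT1 and PSPH of serine synthesis, SHMT2, MTHFD2, MTHFD1L and ALDH1L2 of the mitochondrial folate pathway, and SHMT1 and MTHFD1 of the cytosol. The genes were picked by name, with earlier results of these data known, and are placed by GENCODE 29 (GRCh38). All 9 of 9 were found among the 58336 genes counted, and all 9 were among the 19352 genes with enough counts to be tested.

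The RNA came from HEK293T, a standard laboratory line of human embryonic kidney origin, made to express Halo, a protein tag that binds its ligands covalently. The design text gives Halo for the treated cells, and the labels do not restate it for the DMSO controls. Ibuprofen is an anti-inflammatory drug, ibufenac is the same arylacetic acid without the methyl group next to the carboxyl group, and an acyl glucuronide is the reactive conjugate that the body makes from either acid. In the study's design, a precursor that binds Halo was given at 10 µM for 2 h and, after washing, light of 365 nm and 5 mW/cm2 for 3 min released the acyl glucuronide of ibufenac or of ibuprofen. The 63 libraries form 7 arms of 9: DMSO, and each drug labelled as bolus, photocaged or probe. With 3 replicates at each of 6, 12 and 18 h this makes 21 groups of 3. The labels leave unsaid in what the probe form differs from the photocaged one, which arms were lit, what dose the bolus had, and whether replicates came from separate cultures, so p-values measure only the spread between these libraries, which may be technical.

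Serine is built from a glycolytic intermediate by PHGDH, which oxidises 3-phosphoglycerate, PSAT1, which transfers the amino group, and PSPH, which removes the phosphate. In mitochondria SHMT2 splits serine into glycine and a one-carbon unit carried on folate, MTHFD2 oxidises that unit, MTHFD1L releases it as formate, and ALDH1L2 can instead oxidise it to CO2 with the gain of NADPH. SHMT1 and MTHFD1 handle the same carriers in the cytosol, where formate feeds purine and thymidylate synthesis. Several of these genes are textbook targets of ATF4, the transcription factor that is translated when amino acids run short or other stresses activate the same response.

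Library totals ran from 12.1 to 38.4 M counts (median 19.6 M). Of 8 markers of the HEK293 line, 7 were expressed, such as VIM at a median of 418 normalised counts scaled to library size (CPM) and LIN28B at 133, while PAX2 was at a median of 0.0643. The listed markers of hepatocytes, blood and fibroblasts had medians of 0 CPM for APOB, PTPRC, HBB and COL1A2, and the highest medians among them were 3.13 for COL1A1 and 2.06 for CYP2E1. The chi-square per degree of freedom between replicates' counts over genes, which grows with depth, had a median of 12.0 over 63 pairs. Several groups held a library farther from its replicates, such as Ibufenac bolus 6 h replicate 3 (44.2 and 55.0), Ibufenac bolus 18 h replicate 3 (45.0 and 50.6) and Ibufenac probe 12 h replicate 3 (44.9 and 27.6). Each library was left out in turn, and DMSO 18 h replicate 3 (16.7 and 12.8) was also left out together with Ibufenac bolus 18 h replicate 3, because earlier results of these data had named that pair.

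Per length, on the deposited FPKM scale, the abundant transcripts were SHMT2 with a median of 118 over the 63 libraries, PHGDH with 111, MTHFD2 with 93.1 and MTHFD1 with 84.9. PSAT1 (49.1) and MTHFD1L (41.1) came next, then SHMT1 (22.5), PSPH (15.4) and ALDH1L2 (6.93). In the 9 DMSO libraries SHMT2 spanned 98.7 to 119 and PHGDH 89.9 to 119.8. MTHFD2 spanned 77.1 to 102 and MTHFD1 73.2 to 95.3, so each of these 4 overlapped with its neighbour in the order. PSAT1 (38.4 to 46.6) and MTHFD1L (30.4 to 49.2) overlapped too, while SHMT1 (21.3 to 25.0), PSPH (12.0 to 20.6) and ALDH1L2 (4.67 to 6.58) overlapped with none. The smallest count behind any library's value was 317, for PSPH, and the highest of a gene's 21 group means was from 1.24 times (SHMT1) to 2.64 times (ALDH1L2) its lowest. In CPM, the scale of all levels that follow, ALDH1L2 had the highest of its 21 group means with the ibufenac probe at 12 h. PHGDH, PSAT1, PSPH, SHMT2, MTHFD2 and MTHFD1L had theirs with the ibufenac probe at 6 h. SHMT1 was highest in DMSO at 6 h and MTHFD1 in ibufenac bolus at 6 h. The share of all tested genes that were highest in an ibufenac probe group was not counted.

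**Figure D1:**
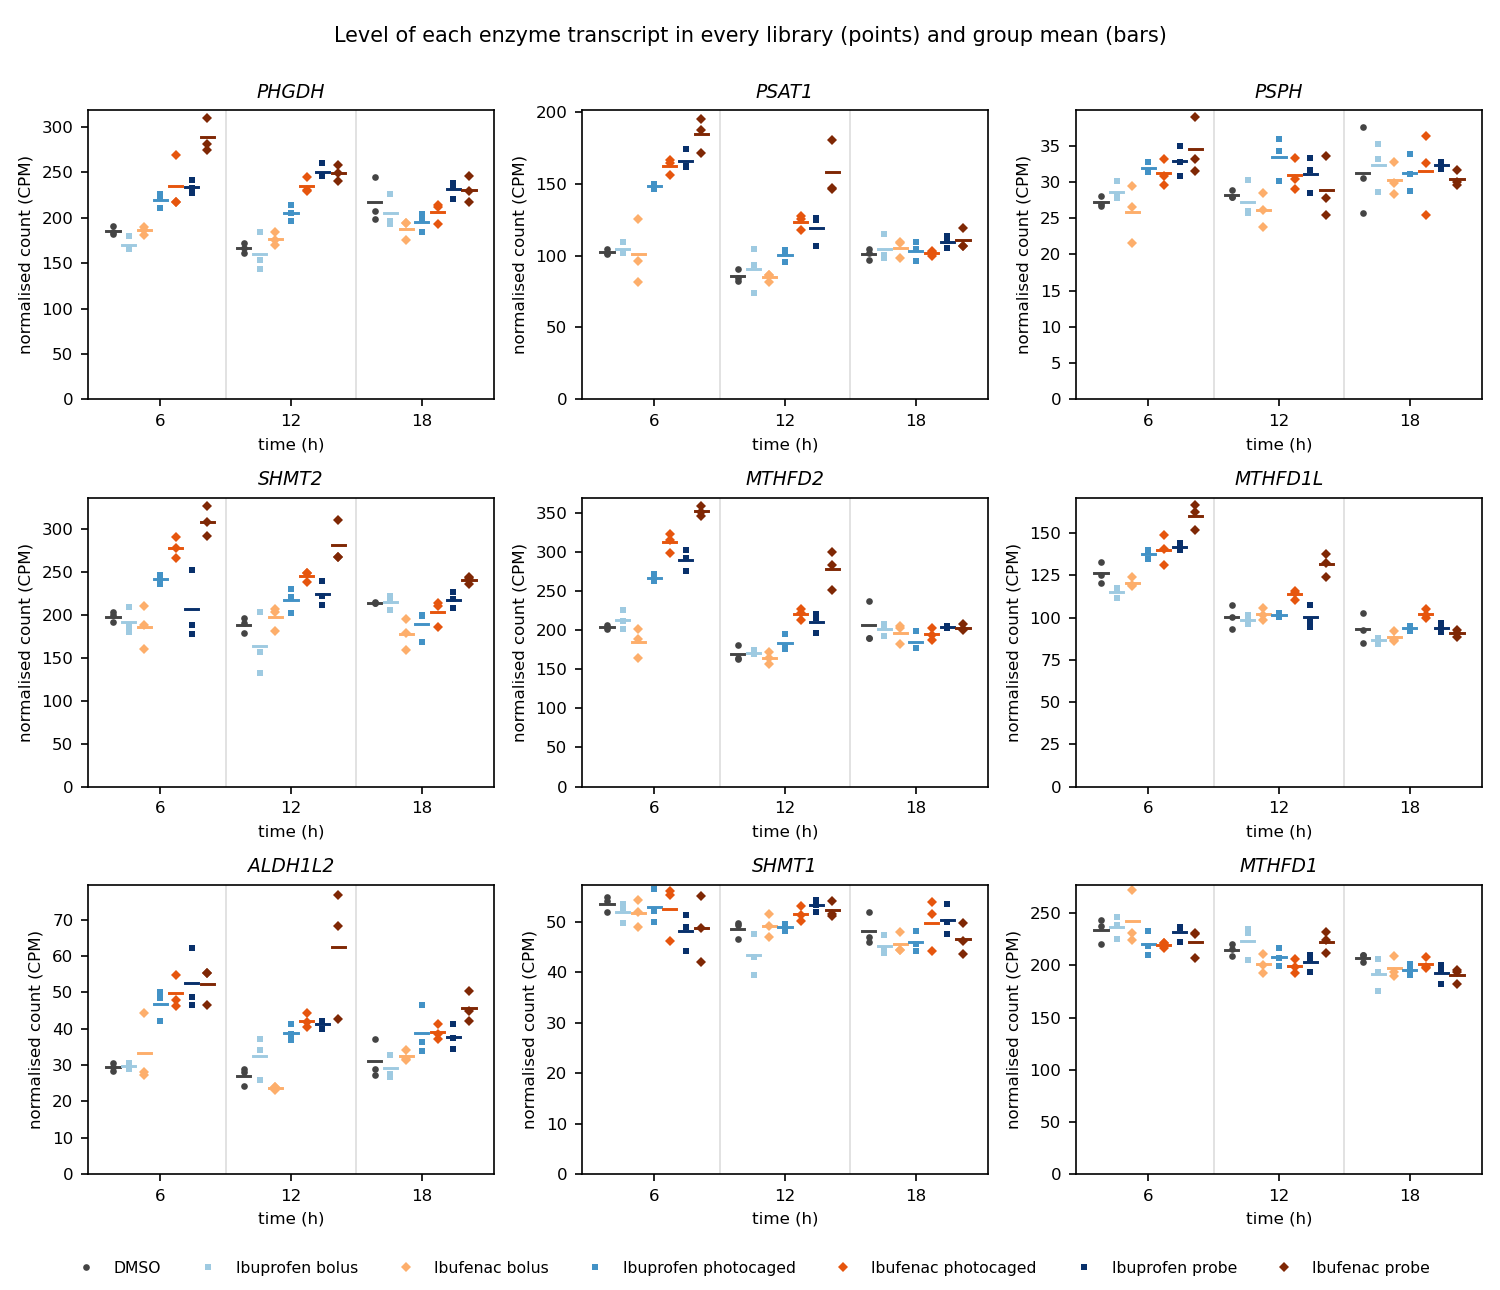
Normalised counts (CPM) of the 9 genes (vertical axes, from 0) against time in hours, with 1 point per library, colours and shapes for the 7 arms and short bars for group means of 3 libraries. PSAT1 at 6 h lies at 102, 101 and 105 in DMSO and at 195, 172 and 188 with the ibufenac probe, while MTHFD1 lies at 243, 221 and 238 and 231, 230.0 and 207.

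The promoter letters of the members were read from RefSeq windows of 300 bases (250 before to 50 after each annotated start, build GRCh38.p14), because several members rose together in the values given further on. Windows exist here for 6 members (PHGDH, PSAT1, SHMT1, MTHFD1, MTHFD2 and MTHFD1L). TGATGNAA, the core of the C/EBP-ATF response element to which ATF4 binds, was searched on both strands and is held by 3.62% of all windows. Among the members with a window it occurs in MTHFD1L, in 3 of its 4 overlapping windows, and it also occurs in ASNS (asparagine synthetase, a textbook ATF4 target). Both stretches are shown 5′ to 3′ with the match in capitals, MTHFD1L from chr6:150866346-150866375 on the plus strand and ASNS from chr7:97872458-97872487 on the minus strand. All 30 bases of each lie in an annotated exon (GENCODE 29).
MTHFD1L: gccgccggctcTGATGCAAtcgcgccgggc
ASNS: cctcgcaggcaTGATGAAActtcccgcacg
The 2 members whose levels followed each other most closely, PSAT1 and MTHFD2, hold no TGATGNAA in their windows. Both hold CCAAT, the letters of the CCAAT box that NF-Y binds, which were added to the search after the windows had been read and are held by 34.6% of all windows on either strand. Their stretches, PSAT1 from chr9:78296925-78297124 and MTHFD2 from chr2:74198365-74198561, both on the plus strand, are shown with CCAAT in capitals. They have 0 bases in an annotated exon of the members, and exons of neighbouring genes were not checked.
PSAT1: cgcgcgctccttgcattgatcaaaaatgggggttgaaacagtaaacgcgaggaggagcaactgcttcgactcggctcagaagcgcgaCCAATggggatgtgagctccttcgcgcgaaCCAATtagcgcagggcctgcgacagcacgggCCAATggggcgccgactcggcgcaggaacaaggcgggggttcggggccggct
MTHFD2: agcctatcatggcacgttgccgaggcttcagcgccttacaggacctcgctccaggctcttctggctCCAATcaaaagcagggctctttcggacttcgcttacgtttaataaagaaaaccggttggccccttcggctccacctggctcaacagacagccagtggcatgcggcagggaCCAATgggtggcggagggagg
CCAAT occurs in the windows of all 6 members, SHMT1 and MTHFD1 included. TGACNNNGC, the antioxidant response element core, is in the MTHFD2 window as its reverse complement (13.3% of all windows), and CACGTG, the E-box that MYC binds, is in those of MTHFD1L and MTHFD1 (7.26% of all windows). A match is a description of the letters, and no binding was measured.

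Against DMSO, averaged over the 3 times (9 libraries against 9), members rose in the photocaged and probe arms of both drugs and none passed the test in either bolus arm. A member is said to rise, fall or differ where edgeR's quasi-likelihood test gave a Benjamini-Hochberg adjusted p under 0.05 over all tested genes, and values are log2 fold changes with their SE. With the ibufenac probe 6 of 9 members rose (PHGDH, PSAT1, SHMT2, MTHFD2, MTHFD1L, ALDH1L2), where 13.2% of all tested genes were called. The same 6 genes rose with photocaged ibufenac (7.49% of all genes called). With the ibuprofen probe 4 rose (PHGDH, PSAT1, MTHFD2, ALDH1L2, against 8.43% of all genes), and with photocaged ibuprofen 2 rose (PSAT1 and ALDH1L2, against 4.28%). No member fell in any of these arms. In bulk RNA, a change in how many cells hold a transcript and a change in the amount per cell cannot be told apart.

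The median log2 fold change of the 9 members was 0.43 with the ibufenac probe, 0.25 with photocaged ibufenac, 0.15 with the ibuprofen probe and 0.11 with photocaged ibuprofen, and the medians over all tested genes were -0.01, 0.00, -0.01 and 0.00. In the bolus arms, 0 of 9 members passed edgeR's test, against 0.0258% of all genes for ibuprofen and 0.0103% for ibufenac. Unadjusted, 2 and 1 members were under 0.05, and the DESeq2 counts were 0 and 0. All 6 comparisons share the same 9 DMSO libraries. Of the 18 calls in these averaged comparisons, 17 held when any 1 library was left out and under every other setting tried, and the exception was MTHFD1L with photocaged ibufenac, whose adjusted p was 0.0746 without the filter on low counts.

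**Figure D2:**
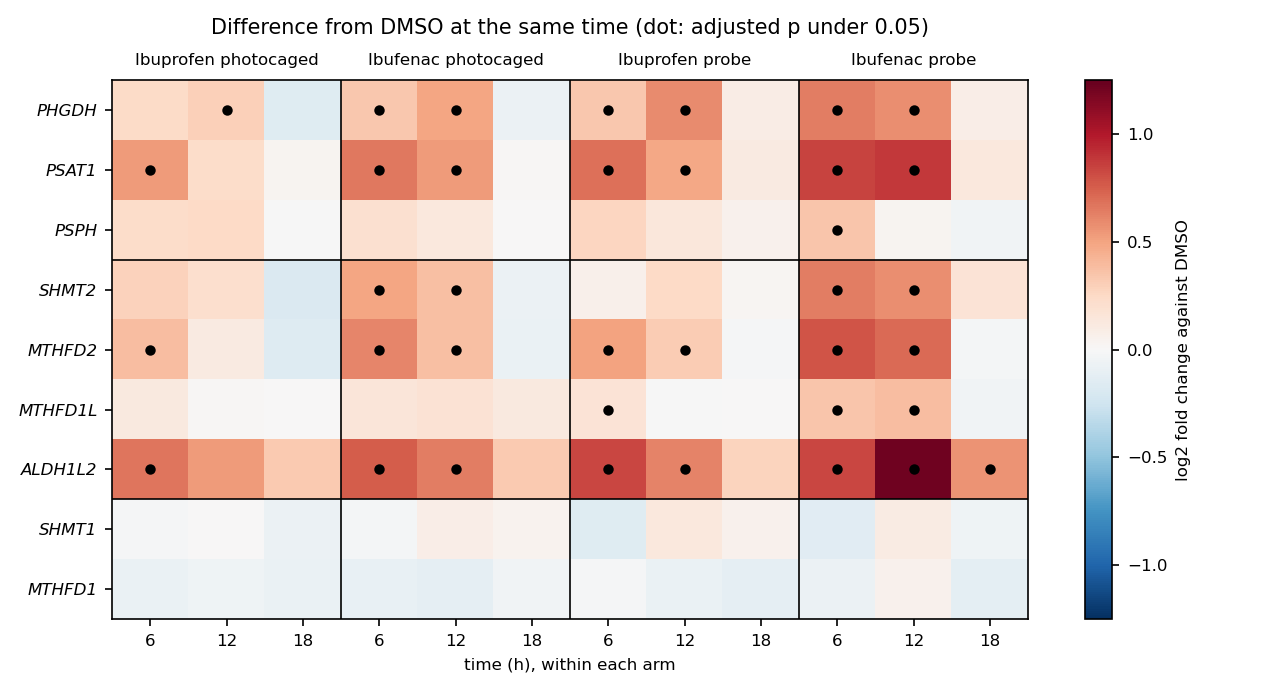
Log2 fold change of each gene (rows) against DMSO at the same time (columns, hours, within the 4 photocaged and probe arms), with red for higher, blue for lower and a dot where the adjusted p was under 0.05. Dots fall on PHGDH, PSAT1, MTHFD2 and ALDH1L2 in all 4 arms, the deepest red is ALDH1L2 with the ibufenac probe at 12 h (1.21), and the SHMT1 and MTHFD1 rows hold none.

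In serine synthesis, PHGDH and PSAT1 rose in several arms and times, and PSPH in 1. PSAT1, the aminotransferase (ENSG00000135069, chr9:78297143-78330093, plus strand), stood at 102, 101 and 105 CPM in the 3 DMSO libraries at 6 h. It stood at 149, 146 and 150.1 with photocaged ibuprofen, at 156, 164 and 166 with photocaged ibufenac, at 162, 174 and 161 with the ibuprofen probe and at 195, 172 and 188 with the ibufenac probe. Every library of these 4 arms was above every DMSO library, and the ibufenac probe libraries reached the highest values. The log2 fold changes at 6 h were 0.53 ± 0.09 (SE, adjusted p = 0.00117), 0.66 ± 0.09 (SE, adjusted p = 4.89e-06), 0.69 ± 0.09 (SE, adjusted p = 3.75e-06) and 0.85 ± 0.09 (SE, adjusted p = 3.04e-09) in that order. The bolus libraries, at 101, 102 and 109.7 for ibuprofen and 96.5, 81.9 and 126 for ibufenac, overlapped with the DMSO values.

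At 12 h PSAT1 was at 82.1, 90.6 and 84.1 CPM in DMSO, 126, 125 and 107 with the ibuprofen probe and 180.3, 146 and 147 with the ibufenac probe. Again no probe library overlapped with DMSO, and the rise was 0.48 ± 0.09 and 0.88 ± 0.09. At 18 h DMSO (97.0, 102 and 105) and the ibufenac probe (106, 107 and 119) lay next to each other without overlap, with a log2 fold change of 0.13 ± 0.09 (SE, adjusted p = 0.565). As an average of the 3 times, PSAT1 rose by 0.27 ± 0.05 (SE, adjusted p = 0.0016) with photocaged ibuprofen, 0.40 ± 0.05 (SE, adjusted p = 8.96e-07) with photocaged ibufenac, 0.43 ± 0.05 (SE, adjusted p = 4.16e-07) with the ibuprofen probe and 0.62 ± 0.05 (SE, adjusted p = 1.88e-12) with the ibufenac probe.

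PHGDH, the first enzyme of the route (ENSG00000092621, chr1:119648411-119744226, plus strand), was at 191, 182 and 185 CPM in DMSO at 6 h, 233, 227 and 242 with the ibuprofen probe and 274, 281 and 310.1 with the ibufenac probe. At 12 h it was at 173, 162 and 166 in DMSO, 245, 229 and 230.3 with photocaged ibufenac, 246, 260.5 and 246 with the ibuprofen probe and 258, 241 and 249 with the ibufenac probe. At both times these treated libraries lay above all DMSO libraries, and at 12 h the 2 probes lay in one range. The rise at 6 h was 0.33 ± 0.08 (SE, adjusted p = 0.004) and 0.64 ± 0.08 (SE, adjusted p = 1.94e-08) with the ibuprofen and ibufenac probe, and at 12 h 0.59 ± 0.08 and 0.58 ± 0.08. With photocaged ibufenac it rose by 0.34 ± 0.08 at 6 h, where replicate 3 of that arm was high (269.7) and the value without it was 0.23 (adjusted p = 0.0844), and by 0.49 ± 0.08 at 12 h. At 18 h the DMSO libraries had 207, 199 and 245, the highest of them in replicate 3, and those of the ibufenac probe 246, 229 and 218, which overlapped, with 0.09 ± 0.08 (SE, adjusted p = 0.648). Averaged over the times, PHGDH rose by 0.25 ± 0.04 (SE, adjusted p = 8.24e-05) with photocaged ibufenac, 0.34 ± 0.04 (SE, adjusted p = 7.1e-07) with the ibuprofen probe and 0.43 ± 0.04 (SE, adjusted p = 1.21e-10) with the ibufenac probe. With photocaged ibuprofen it was 0.13 ± 0.04 (SE, adjusted p = 0.0832), and 0.16 (adjusted p = 0.0217) without DMSO 18 h replicate 3 and Ibufenac bolus 18 h replicate 3.

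PSPH, the phosphatase of the last step (ENSG00000146733, chr7:56011051-56051604, minus strand), passed the test in 1 comparison with DMSO, the ibufenac probe at 6 h. There DMSO had 28.1, 27.0 and 26.6 CPM and the ibufenac probe 31.5, 33.2 and 39.1. The groups did not overlap, and the rise was 0.35 ± 0.11 (SE, adjusted p = 0.0355). The call ended in 5 of 6 omissions of 1 library (all but Ibufenac probe 6 h replicate 1), with values of 0.27 to 0.37 and an adjusted p up to 0.205. Photocaged ibuprofen (31.4 to 32.8), photocaged ibufenac (29.6 to 33.2) and the ibuprofen probe (30.9 to 35.0) also lay above DMSO at 6 h, without passing. At 12 h PSPH lay above DMSO in both photocaged arms, and with both probes it overlapped. Across the 3 times, its values were 0.16 ± 0.07 (SE, adjusted p = 0.194), 0.11 ± 0.07 (SE, adjusted p = 0.363), 0.15 ± 0.07 (SE, adjusted p = 0.139) and 0.11 ± 0.07 (SE, adjusted p = 0.298) in the photocaged ibuprofen, photocaged ibufenac, ibuprofen probe and ibufenac probe arms. Without DMSO 18 h replicate 3, whose PSPH level of 37.6 was the highest of the 9 DMSO libraries, the ibuprofen probe value was 0.21 (adjusted p = 0.0354). PSPH and PSAT1 have pseudogene copies of like sequence, so how reads were divided among the copies adds an uncertainty to both that was not measured here.

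Of the serine hydroxymethyltransferases, SHMT2 rose with both ibufenac forms and SHMT1 passed the test in no arm. SHMT2, the mitochondrial enzyme (ENSG00000182199, chr12:57229327-57234935, plus strand), was at 191, 203 and 199 CPM in DMSO at 6 h, 278, 266 and 291 with photocaged ibufenac, 188, 178 and 252 with the ibuprofen probe and 308, 291 and 327 with the ibufenac probe. All libraries of both ibufenac arms lay above DMSO, and 2 of 3 ibuprofen probe libraries lay below it. Those of photocaged ibuprofen (236 to 246) also lay above DMSO. The rise was 0.49 ± 0.10 (SE, adjusted p = 0.0019) with photocaged ibufenac and 0.64 ± 0.10 (SE, adjusted p = 7.39e-06) with the ibufenac probe, and the ibuprofen probe value was 0.06 ± 0.10 (SE, adjusted p = 0.793). That last value was 0.27 (adjusted p = 0.0162) when trends with transcript GC content and length were removed from each library, so whether SHMT2 differed there depended on that setting. Photocaged ibuprofen at 6 h did not pass in the main fit. It passed with these trends removed (0.33, adjusted p = 0.00625) and with only the libraries of the arms compared (0.30, adjusted p = 0.0489). At 12 h, DMSO had 190.3, 179 and 197 and the ibufenac probe 268, 267 and 310.0, again without overlap, a rise of 0.58 ± 0.10. Photocaged ibuprofen (202 to 230) and the ibuprofen probe (211 to 239) also lay above DMSO at 12 h, without passing the test. At 18 h photocaged ibuprofen (168 to 200) lay below DMSO (213 to 215), and photocaged ibufenac and the ibuprofen probe overlapped with it. The ibufenac probe (236 to 244) lay above DMSO at 18 h, without passing the test in the main fit. It passed there with the GC and length trends removed (0.24, adjusted p = 0.0469). Photocaged ibufenac at 12 h (249, 239 and 248) gave 0.38 ± 0.10 (SE, adjusted p = 0.0356), a call that ended in 6 of 6 omissions of 1 library (values of 0.34 to 0.41, adjusted p up to 0.205). Over all 3 times, SHMT2 rose by 0.27 ± 0.06 (SE, adjusted p = 0.00171) and 0.46 ± 0.06 (SE, adjusted p = 3.98e-08) with photocaged ibufenac and the ibufenac probe, and had 0.11 ± 0.06 (SE, adjusted p = 0.376) and 0.11 ± 0.06 (SE, adjusted p = 0.256) with the 2 ibuprofen forms. Those 2 ibuprofen values passed the test with the GC and length trends removed, at 0.14 (adjusted p = 0.0393) and 0.19 (adjusted p = 0.00186).

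SHMT1, the cytosolic enzyme (ENSG00000176974, chr17:18327860-18363563, minus strand), was at 51.9, 54.8 and 54.1 CPM in DMSO and 48.8, 42.1 and 55.2 with the ibufenac probe at 6 h. The groups overlapped, and the log2 fold change was -0.14 ± 0.08 (SE, adjusted p = 0.287). The ibuprofen probe (44.2 to 51.4) lay below DMSO at 6 h, without passing the test. At 12 h photocaged ibufenac (50.1 to 53.1), the ibuprofen probe (52.0 to 54.3) and the ibufenac probe (51.1 to 54.1) lay above DMSO (46.6 to 49.7). None of these passed the test, and SHMT1 overlapped with DMSO in the other arms and times. In none of the 6 arms did SHMT1 pass the test when averaged over the times, with values from -0.10 (ibuprofen bolus) to 0.04 (photocaged ibufenac). Its 95% interval for the ibufenac probe was -0.12 to 0.06, against 0.35 to 0.58 for SHMT2.

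Among the enzymes that carry the unit on to formate, MTHFD2 rose in all 4 photocaged and probe arms at 6 h. MTHFD2, the mitochondrial dehydrogenase and cyclohydrolase (ENSG00000065911, chr2:74198562-74217565, plus strand), stood at 204, 202 and 206 CPM in DMSO at 6 h. It stood at 272, 266 and 263 with photocaged ibuprofen, 322, 315 and 299 with photocaged ibufenac, 292, 276 and 302 with the ibuprofen probe and 352, 346 and 359 with the ibufenac probe. None of the 4 arms overlapped with DMSO, and the ibufenac probe libraries overlapped with no other arm. The log2 fold changes were 0.39 ± 0.07 (SE, adjusted p = 0.00138), 0.61 ± 0.07 (SE, adjusted p = 1.82e-08), 0.51 ± 0.07 (SE, adjusted p = 4.42e-06) and 0.79 ± 0.07 (SE, adjusted p = 3.57e-12), the last a 1.73-fold level.

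At 12 h MTHFD2 was at 164, 164 and 181 CPM in DMSO and 251, 283 and 299.7 with the ibufenac probe, a rise of 0.71 ± 0.07 without overlap. Photocaged ibufenac (0.38 ± 0.07) and the ibuprofen probe (0.31 ± 0.07) rose too, and the latter call ended in 3 of 6 omissions of 1 library (adjusted p up to 0.062). At 18 h DMSO (190.4, 189.9 and 238) and the ibufenac probe (199.6, 202 and 208) overlapped, with -0.02 ± 0.07 (SE, adjusted p = 0.934). As an average of the 3 times, MTHFD2 rose by 0.30 ± 0.04 (SE, adjusted p = 6.18e-07) with photocaged ibufenac, 0.27 ± 0.04 (SE, adjusted p = 9.87e-06) with the ibuprofen probe and 0.49 ± 0.04 (SE, adjusted p = 1.88e-13) with the ibufenac probe, and was 0.11 ± 0.04 (SE, adjusted p = 0.105) with photocaged ibuprofen. Without DMSO 18 h replicate 3 and Ibufenac bolus 18 h replicate 3, the photocaged ibuprofen value of MTHFD2 was 0.15 (adjusted p = 0.0147).

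MTHFD1L, the mitochondrial formate-releasing synthetase (ENSG00000120254, chr6:150865549-151101887, plus strand), had smaller log2 fold changes than MTHFD2. At 6 h it was at 120.3, 125 and 133 CPM in DMSO, 139.9, 144 and 142 with the ibuprofen probe and 162, 152 and 167 with the ibufenac probe. Neither probe overlapped with DMSO, and the rise was 0.17 ± 0.06 (SE, adjusted p = 0.0442) and 0.35 ± 0.06 (SE, adjusted p = 1.76e-05). The ibuprofen probe call ended in 5 of 6 omissions of 1 library (values of 0.14 to 0.18, adjusted p up to 0.166). At 12 h DMSO had 100.5, 93.0 and 108 and the ibufenac probe 138, 132 and 124, a rise of 0.39 ± 0.06 without overlap. Averaged over the times, MTHFD1L rose with photocaged ibufenac (0.15 ± 0.03 SE, adjusted p = 0.00159) and the ibufenac probe (0.23 ± 0.03 SE, adjusted p = 9.07e-07), and was 0.05 ± 0.03 (SE, adjusted p = 0.474) and 0.06 ± 0.03 (SE, adjusted p = 0.31) with the ibuprofen forms.

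MTHFD1, the cytosolic enzyme that takes formate up again (ENSG00000100714, chr14:64388031-64463457, plus strand), was at 243, 221 and 238 CPM in DMSO and 231, 230.0 and 207 with the ibufenac probe at 6 h, and the groups overlapped. At 12 h photocaged ibufenac (192 to 207) lay below DMSO (209 to 221). At 18 h photocaged ibuprofen (190 to 201), the ibuprofen probe (182 to 200) and the ibufenac probe (182 to 196) lay below DMSO (203 to 210). None of these passed the test, and MTHFD1 overlapped with DMSO in the other arms and times. Across the 3 times, MTHFD1 passed the test in none of the 6 arms, with values from -0.08 (photocaged ibufenac) to -0.01 (ibuprofen bolus) and an interval of -0.12 to 0.03 for the ibufenac probe. With the GC and length trends removed, the ibuprofen probe value was -0.10 (adjusted p = 0.0337), a fall that passed the test.

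ALDH1L2, the mitochondrial 10-formyltetrahydrofolate dehydrogenase (ENSG00000136010, chr12:105019784-105084577, minus strand), was the least abundant member and had the largest log2 fold changes of the 9 in these averages. At 6 h it was at 28.5, 29.3 and 30.5 CPM in DMSO, 42.2, 50.0 and 48.4 with photocaged ibuprofen, 54.9, 46.3 and 48.0 with photocaged ibufenac, 48.8, 62.2 and 46.6 with the ibuprofen probe and 55.3, 46.4 and 55.4 with the ibufenac probe. All 12 treated libraries lay above the 3 DMSO libraries, and the 4 arms overlapped with one another. The rise was 0.67 ± 0.15 (SE, adjusted p = 0.0164), 0.76 ± 0.15 (SE, adjusted p = 0.00104), 0.84 ± 0.15 (SE, adjusted p = 0.000285) and 0.83 ± 0.15 (SE, adjusted p = 6.72e-05). The photocaged ibuprofen call ended in 5 of 6 omissions of 1 library (values of 0.62 to 0.70, adjusted p up to 0.0921).

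At 12 h ALDH1L2 was at 24.1, 28.0 and 28.8 CPM in DMSO and 76.9, 68.1 and 42.7 with the ibufenac probe. All 3 probe libraries lay above DMSO but far apart, the lowest being replicate 3, and the rise was 1.21 ± 0.15 (SE, adjusted p = 2.03e-07), a 2.32-fold level. It also rose at 12 h with photocaged ibufenac (0.64 ± 0.15 SE, adjusted p = 0.0127) and the ibuprofen probe (0.62 ± 0.15 SE, adjusted p = 0.0164), calls that ended in 2 of 6 and 5 of 6 omissions (adjusted p up to 0.0835 and 0.094). Photocaged ibuprofen (36.9 to 41.2) also lay above DMSO at 12 h, without passing in the main fit. It passed by DESeq2 (0.52, adjusted p = 0.0209), with the GC and length trends removed (0.60, adjusted p = 0.00525) and without the filter on low counts (0.53, adjusted p = 0.000539). At 18 h, DMSO had 29.0, 27.2 and 37.0 and the ibufenac probe 42.2, 50.3 and 44.9, without overlap. The rise of 0.56 ± 0.15 (SE, adjusted p = 0.028) was the only call of a member against DMSO at 18 h in the main fit. It ended in 4 of 6 omissions (values of 0.47 to 0.57, adjusted p up to 0.147). Over all 3 times, ALDH1L2 rose by 0.51 ± 0.09 (SE, adjusted p = 0.000148) with photocaged ibuprofen, 0.57 ± 0.09 (SE, adjusted p = 5.96e-06) with photocaged ibufenac, 0.58 ± 0.09 (SE, adjusted p = 9.87e-06) with the ibuprofen probe and 0.87 ± 0.09 (SE, adjusted p = 8.71e-11) with the ibufenac probe.

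Set against their cytosolic counterparts per length, the mitochondrial transcripts stood higher with the ibufenac probe at 6 h, and for most pairs in the other photocaged and probe arms too. The FPKM ratio of SHMT2 to SHMT1 at 6 h was 4.45 ± 0.24 (SD, n = 3, 4.19 to 4.66) in DMSO and 7.78 ± 0.954 (SD, n = 3, 7.06 to 8.86) with the ibufenac probe. The ratio of MTHFD2 to MTHFD1 was 1.02 ± 0.117 (SD, n = 3, 0.94 to 1.16) in DMSO and 1.87 ± 0.131 (SD, n = 3, 1.78 to 2.02) with the ibufenac probe, and that of MTHFD1L to MTHFD1 was 0.504 ± 0.0298 (SD, n = 3, 0.469 to 0.522) and 0.672 ± 0.0832 (SD, n = 3, 0.607 to 0.765). In each of these 3 pairs the 2 groups did not overlap at 6 h. The MTHFD2 ratio also lay above DMSO in photocaged ibuprofen (1.29 to 1.53), photocaged ibufenac (1.61 to 1.74) and the ibuprofen probe (1.41 to 1.48). The SHMT2 ratio did in photocaged ibuprofen (5.23 to 6.29) and photocaged ibufenac (6.42 to 7.30), and the ibuprofen probe overlapped (4.64 to 6.10). The MTHFD1L ratio did in photocaged ibufenac (0.562 to 0.621) and the ibuprofen probe (0.548 to 0.588), and photocaged ibuprofen overlapped (0.509 to 0.649). At 18 h the MTHFD2 to MTHFD1 ratio overlapped, at 1.19 ± 0.182 (SD, n = 3, 1.03 to 1.39) in DMSO and 1.18 ± 0.109 (SD, n = 3, 1.12 to 1.31) with the ibufenac probe, while the SHMT2 to SHMT1 ratio did not, at 5.23 ± 0.346 (SD, n = 3, 4.90 to 5.59) and 6.58 ± 0.255 (SD, n = 3, 6.38 to 6.86). The ratios are descriptions and were not tested.

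**Figure D3:**
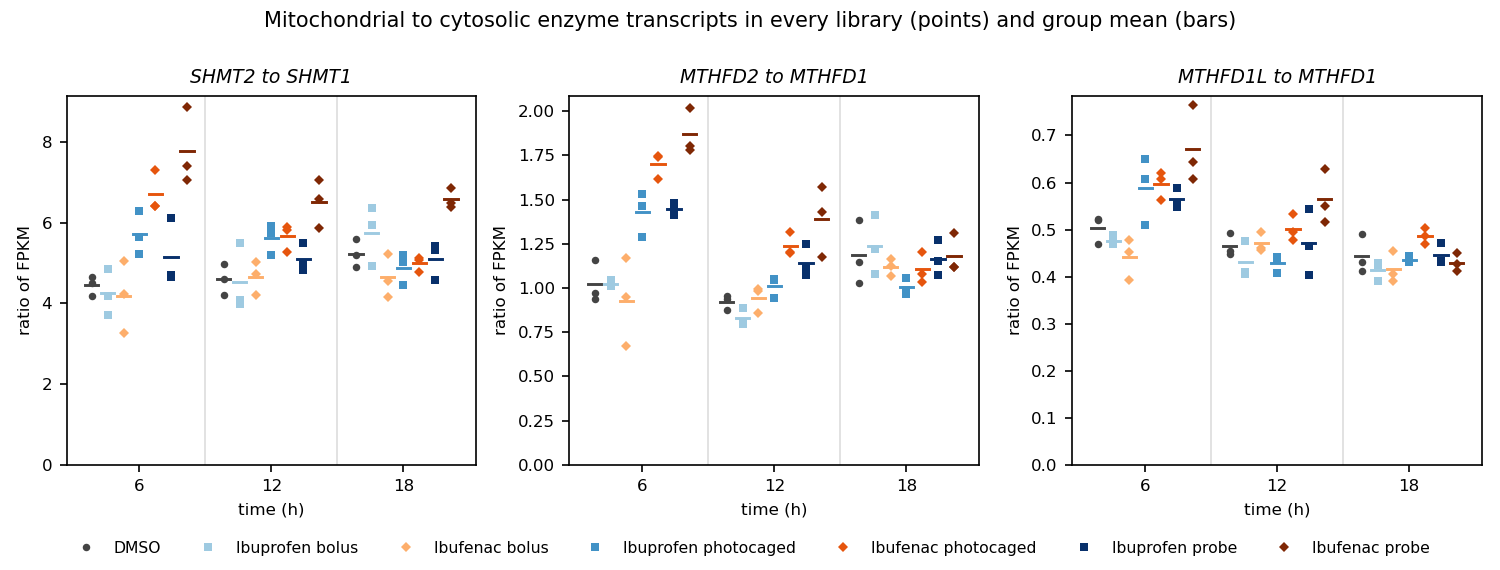
Ratio of FPKM of SHMT2 to SHMT1, MTHFD2 to MTHFD1 and MTHFD1L to MTHFD1 (vertical axes, from 0) against time in hours, with 1 point per library, colours and shapes for the 7 arms and bars for group means of 3. The ibufenac probe means stand highest at 6 h in all 3 panels, with a mean of 7.78 for SHMT2 to SHMT1 against 4.45 in DMSO.

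By time, the members' calls against DMSO lay at 6 and 12 h, with 1 exception at 18 h. At 6 h, 3 of 9 members rose with photocaged ibuprofen (0.992% of all genes called), 5 with photocaged ibufenac (3.03%), 5 with the ibuprofen probe (11.4%) and 7 with the ibufenac probe (12.7%). At 12 h the counts were 1 (0.677%), 5 (1.58%), 4 (1.97%) and 6 (4.51%). The 1 call with photocaged ibuprofen at 12 h was PHGDH (0.30 ± 0.08 SE, adjusted p = 0.0429), and it ended in 6 of 6 omissions of 1 library (adjusted p up to 0.225). At 18 h they were 0 (2.21%), 0 (2.86%), 0 (1.78%) and 1 (2.69%). Where edgeR gave 0, 2, 2 and 0 members were under an unadjusted p of 0.05, and by DESeq2 the counts were 0, 0 and 0. Averaged over 6 and 12 h alone, 3 members passed for photocaged ibuprofen that did not pass over all 3 times: PHGDH moved from 0.13 to 0.27 (adjusted p = 0.00149), MTHFD2 from 0.11 to 0.25 (adjusted p = 0.0013) and SHMT2 from 0.11 to 0.25 (adjusted p = 0.0431). Called values that moved by over 1.5 times were MTHFD2 (0.75) and MTHFD1L (0.37) for the ibufenac probe, MTHFD2 (0.41) for the ibuprofen probe, and PHGDH (0.41), SHMT2 (0.43) and MTHFD2 (0.50) for photocaged ibufenac.

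The treatment by time interaction of edgeR's test (12 degrees of freedom, all 7 arms) asks whether the arms' differences change between the times, and it was called for 6 of 9 members and for 22.8% of all tested genes. MTHFD2 had an adjusted p of 2.25e-09, PSAT1 3.58e-06, PHGDH 7.26e-05, MTHFD1L 0.000316, SHMT2 0.00101 and ALDH1L2 0.0249. PSPH (0.452), SHMT1 (0.196) and MTHFD1 (0.21) did not pass. For ALDH1L2 the call ended without Ibufenac probe 12 h replicate 1 or 2 (adjusted p = 0.0728 and 0.0625) and without DMSO 18 h replicate 3 and Ibufenac bolus 18 h replicate 3 (0.0596), and for MTHFD1L without the filter on low counts (0.0506). Which pair of times differs in which arm was not tested.

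In DMSO alone, MTHFD2 and MTHFD1L fell from 6 to 12 h, with log2 fold changes of -0.27 ± 0.07 (SE, adjusted p = 0.0173) and -0.33 ± 0.06 (SE, adjusted p = 0.000155), 2 of 9 members against 3.82% of all genes. The MTHFD2 call ended in 4 of 6 omissions of 1 library (adjusted p up to 0.115). From 6 to 18 h MTHFD1L had a log2 fold change of -0.43 ± 0.06 (SE, adjusted p = 1.3e-07), with 120.3, 125 and 133 CPM at 6 h and 103, 84.8 and 92.6 at 18 h and no overlap. PHGDH rose by 0.23 ± 0.08 (SE, adjusted p = 0.0305) and MTHFD1 had a log2 fold change of -0.17 ± 0.06 (SE, adjusted p = 0.0491), which makes 3 of 9 members against 17.5% of all genes. The PHGDH call ended in 3 of 6 omissions (DMSO 18 h replicate 3 and DMSO 6 h replicates 2 and 3), at 0.13 without the first of these, and the MTHFD1 call ended in 5 of 6 omissions (values of -0.18 to -0.14).

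Ibufenac and ibuprofen, which differ by a methyl group, were compared in the same form and at the same times, 3 pairs averaged over the times and 9 at single times. In the probe form, 5 of 9 members were higher with ibufenac averaged over the times (2.82% of all genes called). SHMT2 differed by 0.35 ± 0.06 (SE, adjusted p = 9.05e-05), MTHFD2 by 0.22 ± 0.04 (SE, adjusted p = 0.000327), MTHFD1L by 0.17 ± 0.03 (SE, adjusted p = 0.000863), PSAT1 by 0.19 ± 0.05 (SE, adjusted p = 0.036) and ALDH1L2 by 0.29 ± 0.08 (SE, adjusted p = 0.0469). The SHMT2, MTHFD2 and MTHFD1L calls held when any 1 library was left out. The PSAT1 call ended in 8 of 18 and the ALDH1L2 call in 14 of 18 omissions of 1 library (values of 0.16 to 0.19 and 0.23 to 0.31). PHGDH, PSPH, SHMT1 and MTHFD1 did not pass, with 95% intervals of 0.01 to 0.19, -0.17 to 0.09, -0.13 to 0.05 and -0.05 to 0.09.

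At 6 h the probe pair differed for 4 members (23.6% of all genes called): SHMT2 by 0.58 ± 0.10 (SE, adjusted p = 4.02e-05), PHGDH by 0.30 ± 0.08 (SE, adjusted p = 0.00225), MTHFD2 by 0.28 ± 0.07 (SE, adjusted p = 0.00187) and MTHFD1L by 0.18 ± 0.06 (SE, adjusted p = 0.0194). The SHMT2 libraries given above, 188, 178 and 252 CPM for ibuprofen and 308, 291 and 327 for ibufenac, did not overlap. Neither did the protein-coding shares of counts in these libraries, 79.5, 80.0 and 75.8% for ibuprofen and 71.7, 72.1 and 70.7% for ibufenac. The DMSO libraries at 6 h had 78.2, 75.7 and 76.2%, all above the ibufenac probe libraries. The part of this share in the drug differences, and in the differences of the ibufenac probe from DMSO at 6 h, was not tested. With the GC and length trends removed the SHMT2 difference was 0.33, that of MTHFD2 0.46 and that of PSAT1, 0.16 ± 0.09 otherwise, 0.32 (adjusted p = 0.00974). The MTHFD1L call ended in 3 of 6 omissions of 1 library (Ibufenac probe replicates 1 and 3, Ibuprofen probe replicate 1, values of 0.14 to 0.17). At 12 h it differed for 4 members (1.92%): ALDH1L2 by 0.60 ± 0.15 (SE, adjusted p = 0.0205), PSAT1 by 0.40 ± 0.09 (SE, adjusted p = 0.0148), MTHFD2 by 0.40 ± 0.07 (SE, adjusted p = 0.000627) and MTHFD1L by 0.39 ± 0.06 (SE, adjusted p = 4.45e-05). SHMT2 missed the threshold, at 0.33 ± 0.10 (SE, adjusted p = 0.0653), and passed it in 5 other settings: DESeq2 (0.36), RLE size factors (0.36), GC and length trends removed (0.46), no filter on low counts (0.29) and only the libraries of the arms compared (0.33). MTHFD2 then stood at 216, 196 and 220.3 with the ibuprofen and 251, 283 and 299.7 with the ibufenac probe, without overlap, while ALDH1L2 lay at 41.9, 42.2 and 39.8 and 76.9, 68.1 and 42.7. The ALDH1L2 and PSAT1 calls ended in 5 of 6 and 2 of 6 omissions (adjusted p up to 0.172 and 0.13). At 18 h 0 members differed (0% of all genes), 0 at an unadjusted p under 0.05 and 0 by DESeq2.

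In the photocaged form, 1 of 9 members differed averaged over the times (0.0362% of all genes called), MTHFD2 with 0.19 ± 0.04 (SE, adjusted p = 0.0473). That call ended in 15 of 18 omissions of 1 library (adjusted p up to 0.182), and its interval was 0.11 to 0.27. The intervals of the other members included 0.04 to 0.28 for SHMT2, 0.03 to 0.24 for PSAT1 and -0.10 to 0.24 for ALDH1L2. At 6, 12 and 18 h edgeR called 0 members (0%, 0% and 0% of all genes). Unadjusted, 2, 4 and 1 were under 0.05, and the DESeq2 counts were 0, 0 and 0.

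In the bolus form 0 members differed between the drugs averaged over the times (0% of all genes), with intervals such as -0.18 to -0.02 for MTHFD2 and -0.14 to 0.10 for SHMT2. At 6, 12 and 18 h the counts were also 0, where 2.3%, 0.0362% and 0% of all genes were called. Over the 4 bolus comparisons in that order, 1, 1, 4 and 1 members were under an unadjusted p of 0.05, and the DESeq2 counts were 0, 0, 0 and 0. Whether the drug difference itself was larger in the probe than in the photocaged form was tested, and 0 of 9 members passed (0.031% of all genes, 1 member at an unadjusted p under 0.05, 0 by DESeq2). That difference of differences was 0.19 ± 0.08 for SHMT2 (0.03 to 0.36) and 0.03 ± 0.06 for MTHFD2 (-0.08 to 0.15).

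**Figure D4:**
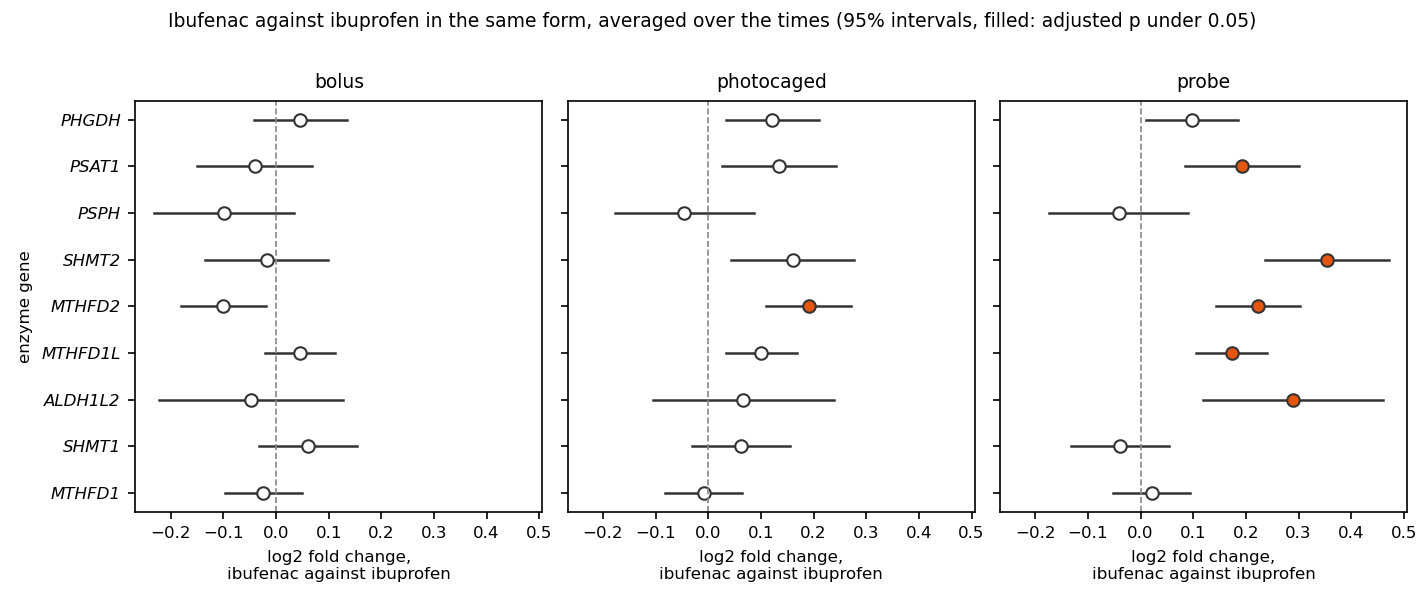
Log2 fold change of ibufenac against ibuprofen (horizontal axes) for each gene in the bolus, photocaged and probe forms, averaged over the times, 9 libraries against 9, with 95% intervals as bars and filled points where the adjusted p was under 0.05. In the probe panel SHMT2 lies farthest to the right at 0.35, and the bolus panel holds no filled point.

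Within ibufenac, the probe exceeded the photocaged form in 5 of 9 members averaged over the times (2.68% of all genes called). These were ALDH1L2 (0.29 ± 0.08 SE, adjusted p = 0.046), PSAT1 (0.22 ± 0.05 SE, adjusted p = 0.0141), SHMT2 (0.20 ± 0.06 SE, adjusted p = 0.0482), MTHFD2 (0.19 ± 0.04 SE, adjusted p = 0.00391) and PHGDH (0.18 ± 0.04 SE, adjusted p = 0.0115). The ALDH1L2 call ended in 14 of 18 omissions of 1 library, the SHMT2 call in 16 of 18 and the PSAT1 call in 1 of 18 (without Ibufenac probe 12 h replicate 1, 0.19), while those of MTHFD2 and PHGDH held. Within ibuprofen 1 member, PHGDH, was higher with the probe (0.21 ± 0.04 SE, adjusted p = 0.0222, against 0.0982% of all genes), a call that ended in 5 of 18 omissions (adjusted p up to 0.0725).

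Against the bolus of the same drug, averaged over the times, members were higher in both other forms, and none was lower. With ibufenac, 6 of 9 were higher in the photocaged form (6.05% of all genes called) and 6 with the probe (11.2%): PHGDH, PSAT1, SHMT2, MTHFD2, MTHFD1L and ALDH1L2 in both. The largest of these were ALDH1L2 (0.85 ± 0.09), PSAT1 (0.61 ± 0.05), MTHFD2 (0.58 ± 0.04) and SHMT2 (0.56 ± 0.06) with the probe. With ibuprofen, 4 members were higher in the photocaged form (3.43%) and 5 with the probe (3.7%), PHGDH, PSAT1, MTHFD1L and ALDH1L2 in both and MTHFD2 (0.25 ± 0.04) with the probe. SHMT2 was near the threshold there, at 0.18 ± 0.06 (SE, adjusted p = 0.0657) and 0.19 ± 0.06 (SE, adjusted p = 0.0533), and without Ibuprofen bolus 12 h replicate 1 it passed in both (0.25 and 0.25). The 2 MTHFD1L calls with ibuprofen ended without the filter on low counts (adjusted p = 0.188 and 0.103). The PSAT1 call with photocaged ibuprofen ended with only the libraries of the arms compared (0.22, adjusted p = 0.0527).

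Likeness of pattern was measured as Pearson's r between mean log2 CPM over the 21 groups, among 14496 genes that averaged 1 CPM or more, and is given as a description, since the groups share treatments, times and libraries. Of the pairs of members, PSAT1 and MTHFD2 were closest (r = 0.98), then PSAT1 and ALDH1L2 (0.88) and PHGDH and SHMT2 (0.87). MTHFD1 had r near 0 or below with PHGDH (-0.17) and SHMT2 (-0.04). The gene nearest to PSAT1 was ASNS (r = 0.99), followed by EPRS1 (r = 0.95), a tRNA synthetase, and SLC1A4 (r = 0.94), a transporter of neutral amino acids that include serine. MTHFD2 was also nearest to ASNS (r = 0.97), then to CEBPG (r = 0.94), a C/EBP transcription factor that pairs with ATF4. PHGDH was nearest to PCK2 (r = 0.93), the mitochondrial phosphoenolpyruvate carboxykinase, and SHMT2 to EIF4EBP1 (r = 0.93), an inhibitor of cap-dependent translation. ALDH1L2 was nearest to BCAT1 (r = 0.93), a transaminase of branched-chain amino acids, MTHFD1L to SEC24C (r = 0.93), PSPH to TRNAU1AP (r = 0.85), SHMT1 to STIMATE (r = 0.81) and MTHFD1 to AFG3L1P (r = 0.94). Next came EPRS1 (0.94) for MTHFD2, TCF19 (0.89) and CD99L2 (0.88) for PHGDH, and PCK2 (0.92) and RUSF1 (0.90) for SHMT2. ALDH1L2 was next nearest to GNG2 (0.93) and ANK2 (0.92), and MTHFD1L to YARS1 (0.92) and ANXA7 (0.92). PSPH was followed by MOAP1 (0.84) and SCARNA7 (0.83), SHMT1 by TOR3A (0.77) and SMARCD2 (0.76), and MTHFD1 by XPO5 (0.94) and MTAP (0.93).

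Around the members, 48 other genes of serine, glycine, folate, methionine and purine metabolism were listed, of which 46 could be tested. As an average of the 3 times, against DMSO, photocaged ibuprofen had 2 that rose and 7 that fell, photocaged ibufenac 5 and 4, the ibuprofen probe 5 and 8, and the ibufenac probe 7 and 7. Of all tested genes, 1.98% rose and 2.3% fell with photocaged ibuprofen, and 4.13% and 3.36% with photocaged ibufenac. The probes had 3.81% and 4.61% for ibuprofen and 5.87% and 7.31% for ibufenac. The counts of listed genes moved between settings, for the ibufenac probe from 7 to 9 higher and 4 to 11 lower. Their median log2 fold change with the ibufenac probe was -0.01, beside -0.01 over all genes. None of the 4 glycine cleavage genes and none of the 9 other folate enzymes tested passed in the 6 arms as an average of the times. At 6 h alone 1 gene of each list passed, both named after their values were seen: GCSH, a glycine cleavage protein, fell with the ibufenac probe (-0.62 ± 0.13 SE, adjusted p = 0.000358). The other was DHFR2, a dihydrofolate reductase, which rose with photocaged ibufenac and both probes (0.68 ± 0.18, 0.55 ± 0.18 and 0.52 ± 0.18). Of the 5 genes of folate transport, 1 passed, SLC19A1, the reduced folate carrier, with -0.40 ± 0.13 (SE, adjusted p = 0.0486) for the ibuprofen probe, and its call ended in 17 of 26 other settings and omissions of 1 library (adjusted p up to 0.51).

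Transport of serine and glycine held rises and falls. SLC1A4 rose in all 4 photocaged and probe arms, by 0.45 ± 0.05, 0.71 ± 0.05, 0.53 ± 0.05 and 0.80 ± 0.05 for photocaged ibuprofen, photocaged ibufenac, the ibuprofen probe and the ibufenac probe. SLC6A9, a glycine transporter, rose with photocaged ibufenac (0.54 ± 0.11 SE, adjusted p = 0.000375) and the ibufenac probe (0.55 ± 0.11 SE, adjusted p = 0.000167), and so did SLC38A2 (0.13 ± 0.04 and 0.19 ± 0.04), whose first call ended in 9 of 26 settings and omissions. SFXN1, which carries serine into mitochondria and was singled out after its values were seen, fell in the same 4 arms, with -0.15 ± 0.03, -0.15 ± 0.03, -0.13 ± 0.03 and -0.18 ± 0.03. Its ibuprofen probe call ended without the filter on low counts (adjusted p = 0.107). SRR, serine racemase, rose by 0.53 ± 0.07 (SE, adjusted p = 4.05e-08) with the ibufenac probe, by 0.27 ± 0.07 (SE, adjusted p = 0.00757) with the ibuprofen probe and by 0.25 ± 0.07 (SE, adjusted p = 0.0133) with photocaged ibufenac. Both smaller SRR calls ended without the filter on low counts (adjusted p = 0.0716 and 0.147). SDSL, a serine dehydratase-like enzyme at a median of 4.46 CPM, rose by 0.86 ± 0.20 (SE, adjusted p = 0.00168) with the ibufenac probe. PTDSS1, which uses serine for phosphatidylserine, fell in the 4 arms, with -0.31 ± 0.04 (SE, adjusted p = 1.69e-08) for the ibufenac probe. Its photocaged ibufenac call ended without the filter on low counts and at 6 and 12 h alone (adjusted p up to 0.0878).

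Among the purine and methionine genes, averaged over the times, calls went in both directions. Of 8 purine synthesis genes, 3 fell with photocaged ibuprofen, 1 with photocaged ibufenac, 3 with the ibuprofen probe and 3 with the ibufenac probe, and none rose. In these arms 2.3%, 3.36%, 4.61% and 7.31% of all tested genes fell. PPAT, the first committed enzyme, fell in all 4 arms (-0.16 ± 0.05, -0.16 ± 0.05, -0.22 ± 0.05 and -0.17 ± 0.05), PFAS with the ibuprofen probe (-0.25 ± 0.07 SE, adjusted p = 0.0179) and PRPS2 with the ibufenac probe (-0.19 ± 0.06 SE, adjusted p = 0.0258). The PPAT call ended in 17 of 26, 8 of 26, 0 of 26 and 2 of 26 settings and omissions in these arms, that of PFAS in 4 of 26 and that of PRPS2 in 7 of 26, and with the ibufenac probe both the PPAT and the PRPS2 call ended without DMSO 18 h replicate 3. In the methionine cycle, MAT2A, which makes S-adenosylmethionine, fell in all 4 arms (-0.22 ± 0.05, -0.20 ± 0.05, -0.28 ± 0.05 and -0.30 ± 0.05), and MTRR fell with photocaged ibuprofen (-0.18 ± 0.05 SE, adjusted p = 0.0371), a call that ended in 17 of 26 settings and omissions. CTH, the cysteine-forming enzyme of transsulfuration, rose in all 4 (0.29 ± 0.05, 0.51 ± 0.05, 0.28 ± 0.05 and 0.43 ± 0.05).

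Of the regulators, ATF4 mRNA rose with photocaged ibufenac (0.15 ± 0.03 SE, adjusted p = 0.000955), the ibuprofen probe (0.10 ± 0.03 SE, adjusted p = 0.033) and the ibufenac probe (0.22 ± 0.03 SE, adjusted p = 1.52e-06), and with photocaged ibuprofen it was 0.01 ± 0.03 (SE, adjusted p = 0.897). The ibuprofen probe call of ATF4 ended in 8 of 26 settings and omissions. MYC, a transcription factor of cell growth, fell in all 4 arms (-0.31 ± 0.06, -0.25 ± 0.06, -0.30 ± 0.06 and -0.28 ± 0.06), and in none of them at 6 and 12 h alone (-0.09, -0.09, -0.12 and -0.07, adjusted p from 0.504 to 0.676). The ATF4 targets ASNS (0.39 ± 0.04, 0.56 ± 0.04, 0.58 ± 0.04 and 0.88 ± 0.04) and TRIB3 (0.30 ± 0.05, 0.46 ± 0.05, 0.32 ± 0.05 and 0.98 ± 0.05) rose in all 4. In the bolus arms none of the 46 listed genes and none of these 4 passed as an average of the 3 times. Across the other settings and omissions up to 1 listed gene rose and up to 2 fell. The average for MYC with the ibufenac bolus was -0.28 ± 0.06 (SE, adjusted p = 0.105), which passed in 4 of 26 settings and omissions. At 18 h alone the ibufenac bolus had 2 listed genes that rose, MTR and PRPS1, and 3 that fell, SLC1A5, AHCY and CBS. In that comparison 2.32% of all tested genes rose and 2.71% fell. MYC fell there too (-0.63 ± 0.11 SE, adjusted p = 0.000708). These 5 listed genes were named after their values were seen. Of the 9 members 0 passed there, and 2 were under an unadjusted p of 0.05 by edgeR's test. The PHGDH libraries of the ibufenac bolus at 18 h (176 to 194 CPM) lay below those of DMSO (199 to 245). So did those of SHMT2 (160 to 195 against 213 to 215), and the other members overlapped with DMSO. The share of all tested genes that did not overlap there was not counted. ATF4 is controlled largely at translation, which these data do not measure.

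**Figure D5:**
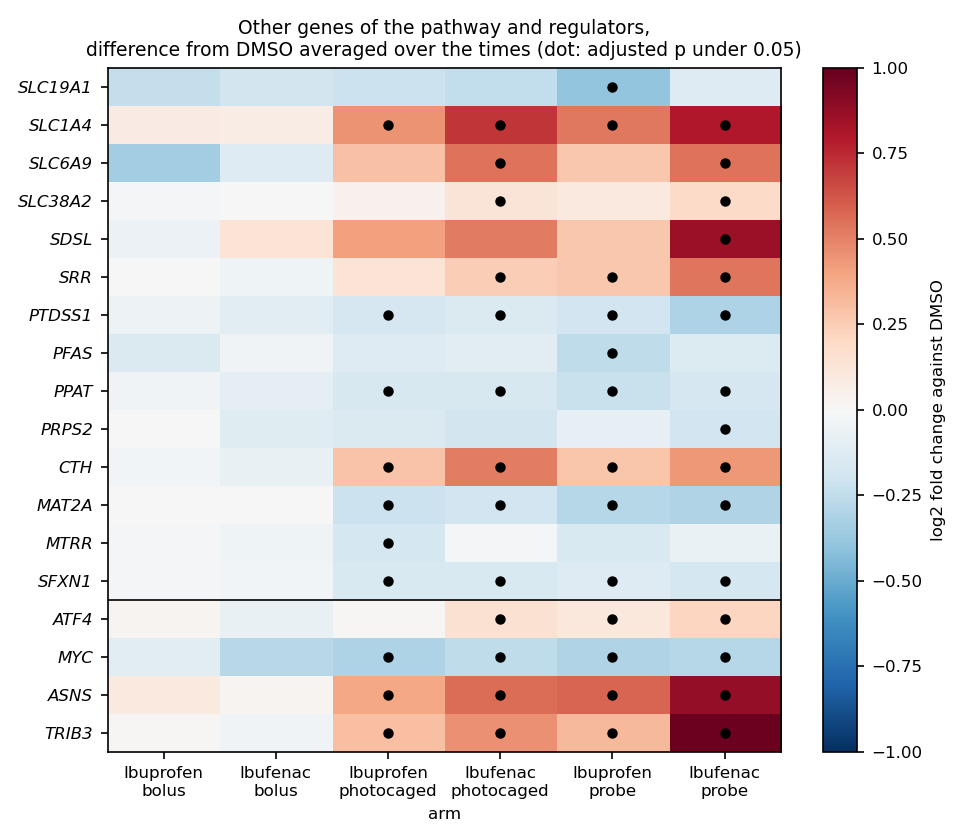
Log2 fold change against DMSO averaged over the times for genes that supply or use serine and one-carbon units (upper rows) and for 4 regulators and comparators (below the line) in the 6 arms (columns), with red for higher, blue for lower and a dot where the adjusted p was under 0.05. The bolus columns hold no dot, and TRIB3 with the ibufenac probe is the deepest red at 0.98.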

How the data were processed

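The authors deposited 2 tables of 58336 genes by 63 libraries, 1 of expected counts (estimated counts per gene, 22.6% of values not whole) and 1 of FPKM, scaled by gene length and depth. Per the labels' protocols, total RNA was depleted of ribosomal RNA and made into stranded TruSeq libraries. Not given in the sources used here: aligner, counting program, build and strand setting. Groups come from the treatment labels.

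Expected counts were rounded and fitted with edgeR 4.0.16 (R 4.3.3, limma 3.58.1): genes kept by filterByExpr with a minimum count of 10 (19352), TMM factors, 1 coefficient for each of 21 groups over all libraries (42 residual degrees of freedom), quasi-likelihood tests, and Benjamini-Hochberg adjustment within each comparison at 0.05. CPM are counts scaled by the TMM-adjusted library totals, and intervals cover 95%. Overlap between the libraries of groups was read for the members only, and its share over all tested genes was not counted. DESeq2 1.42.0 was an alternative. The others were RLE size factors, no filter, a replicate block, the compared arms alone, 6 and 12 h alone, omission of each library, omission of DMSO 18 h replicate 3 with Ibufenac bolus 18 h replicate 3, and, chosen after seeing the data, removal of GC and length trends (lowess offsets for the 19319 genes, 99.83%, with both values). The code was tested on simulated data with known changes. The members, the gene lists and the tests were chosen with earlier results of these data known. Of each list the text names up to 3 genes, those with the largest called change that averaged 1 CPM or more, with ATF4, MYC, ASNS and TRIB3. Symbols of 57754 genes came from a current name table and of 462 from GENCODE 29, and 120 had none. No 2 replicates were duplicates: the smallest chi-square per degree of freedom over 63 replicate pairs was 4.91.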

Additional observations from a re-analysis of the deposited data

Results flagged for a closer look

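For 6 of the 9 genes the differences between the 7 arms were not the same at 6, 12 and 18 h, by the treatment by time interaction of edgeR's quasi-likelihood test (12 degrees of freedom, adjusted over all tested genes). The same test was called for 22.8% of all tested genes. The adjusted p was 2.25e-09 for MTHFD2, 3.58e-06 for PSAT1, 7.26e-05 for PHGDH, 0.000316 for MTHFD1L, 0.00101 for SHMT2 and 0.0249 for ALDH1L2. The ALDH1L2 result was lost without Ibufenac probe 12 h replicate 1 (adjusted p = 0.0728) or replicate 2 (0.0625). It was also lost without DMSO 18 h replicate 3 and Ibufenac bolus 18 h replicate 3 (0.0596). The MTHFD1L result was lost without the filter on low counts (0.0506). Within a group of 3 libraries no test for an outlying value was made.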

How the results depend on the processing

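No called value changed direction under any setting tried. Of 101 called values of the 9 genes, 74 held in all 8 other settings and in every omission of 1 library, and of 57 called values of the other named genes 37 did. The number of members called moved by over 1.5 times as follows. Without the filter on low counts it was 1 for DMSO at 12 against 6 h, 2 and 1 for the drug difference in the bolus at 12 and 18 h, and 2 for photocaged ibuprofen against DMSO at 12 h. With GC and length trends removed it was 0 for the photocaged drug difference averaged over the times, 2 for the ibufenac probe against DMSO at 18 h, and 2 at 12 h and 4 averaged for photocaged ibuprofen against DMSO. With only the libraries of the arms compared it was 0 for the photocaged drug difference and 0 for the ibufenac probe against DMSO at 18 h. DESeq2 gave 2 for photocaged ibuprofen against DMSO at 12 h and 2 for the ibuprofen probe against photocaged. At 6 and 12 h alone it was 5 for photocaged ibuprofen against DMSO and 0 for the ibuprofen probe against photocaged. With DMSO 18 h replicate 3 and Ibufenac bolus 18 h replicate 3 both left out it was 1 for DMSO at 18 against 6 h, 4 for photocaged ibuprofen against DMSO and 2 for the ibuprofen probe against photocaged. The cause of these moves was not tested, except that some settings hold fewer libraries.

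Leaving out 1 library at a time, the number of members called ranged from 0 to 0 for ibuprofen photocaged against DMSO at 12 h, from 0 to 1 for drug difference in the bolus at 6 h, drug difference in the photocaged, ibufenac probe against DMSO at 18 h and ibuprofen probe against photocaged, from 0 to 2 for drug difference in the bolus at 12 h. It ranged from 1 to 2 for DMSO at 12 h against 6 h and DMSO at 18 h against 6 h, from 2 to 3 for ibuprofen photocaged against DMSO at 6 h and ibuprofen probe against DMSO at 12 h, from 2 to 4 for drug difference in the probe at 12 h, ibufenac probe against photocaged and ibuprofen photocaged against DMSO. Ranges were from 3 to 4 for drug difference in the probe at 6 h and ibufenac photocaged against DMSO at 12 h, from 3 to 5 for drug difference in the probe, from 4 to 5 for ibufenac photocaged against DMSO at 6 h, ibuprofen photocaged against bolus, ibuprofen probe against DMSO at 6 h and ibuprofen probe against DMSO. The number ran from 5 to 6 for ibuprofen probe against bolus and the treatment by time interaction, from 6 to 7 for ibufenac photocaged against bolus, ibufenac probe against bolus and ibufenac probe against DMSO at 6 h. Times are named where a comparison is not averaged over them, and the other comparisons kept their counts. Replicate numbers showed no sign of pairing: the median correlation of deviations was 0.002 over 189 pairs with the same number, 3 of them over 0.1. Over 378 pairs with other numbers it was -0.002, with 5 over 0.1. Such medians cannot show whether replicates were grown or prepared together. With the replicate number as a block, 356 member values stayed on their side of the threshold and 4 did not. SHMT2 in the ibuprofen probe against bolus passed (adjusted p = 0.0495). MTHFD1 in DMSO at 18 against 6 h (0.118) and ALDH1L2 in the probe drug difference (0.0527) and in the ibufenac probe against photocaged (0.0541) no longer passed. The smallest count of a member in any library was 317.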
